A study of Rattus norvegicus with 32 samples.

Results

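The genes described here are those of the secreted and membrane-bound messengers of inflammation: chemokines, interleukins, colony stimulating factors and ligands of the tumour necrosis factor (TNF) family. Members were chosen by name alone, as every probe set that carried exactly 1 gene symbol and whose symbol was that of such a ligand. The rule found 78 genes with 1 probe set each, among 14511 genes with such probe sets. Receptors and intracellular signalling genes were not members and are given separately at the end. The signal was measured in rat epithelial cells from thymus and from hair follicle, grown before and after transplantation into skin.

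The study held 16 cultures with 2 arrays each. All cells came from Sprague-Dawley rats that carry a green fluorescent protein transgene and were grown on irradiated 3T3-J2 cells, a mouse fibroblast line used as a feeder layer. Thymic epithelial cells (TEC) were compared with hair follicle (HF) cells, and the question of the design was how TEC and HF cells compare before and after a stay in skin on nude mice, which lack a normal thymus and mature T cells. The ungrafted TEC cultures were PRE16cl11_VII (E16 donor, clonal), PRP1cl11_VII (P1, clonal), PRP4mo_bulk and PRP4mo_Cl09 (both from 4-month-old donors, bulk and clonal). The TEC cultures recovered after a first transplantation were Clone_217 and Clone_218 (E16), Clone_57 (P1) and Clone_907 (4 months, labelled bulk). Those after a second transplantation were Clone_287 and Clone_347 (E16), Clone_194 (P1) and Clone_354 (4 months, labelled bulk). The ungrafted HF cultures were YR219P5_Bulk_V (bulk) and YR219P5cl7 (clonal), and the HF cultures after a first transplantation were YR219P5_RC (bulk) and Clone_54 (clonal). All HF cultures carry the label P5, which no TEC culture has. The labels do not say whether P5 is an age or a passage number, and tissue cannot be told apart from what it stands for. A clonal culture is the progeny of 1 cell and is a narrow model of its tissue. Grafted cells were grown again in culture before RNA was taken, and no culture was dissected and grown again without a graft, so grafting and re-culture cannot be told apart. The labels do not say whether cultures came from separate animals, so the p-values measure only the spread between these cultures.

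Chemokines direct the migration of leukocytes. In the CXC class, Cxcl1, Cxcl2, Cxcl3 and Cxcl6 attract neutrophils through Cxcr2, whereas Cxcl10 is induced by interferon and attracts activated T cells through Cxcr3. Keratinocytes release interleukin-1 alpha, interleukin-33 and neutrophil chemokines when the skin barrier is breached, many of them through the transcription factor NF-kB. In the thymus, epithelial cells use Ccl19, Ccl21, Ccl25 and Cxcl12 to draw in T cell progenitors and Il7 to keep them alive.

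Neighbouring chemokine genes were among the most variable members, and the stretch upstream of their starts is shown because it holds letters that match the consensus of NF-kB, a factor known to act on such genes. The sequences are from RefSeq (rat genome build GRCr8), which held a promoter window for 60 of the 78 members. They end at the base before the start of the gene and read in the direction of transcription. Cxcl1 (chr14:17479322-17479471, minus strand), Cxcl2 (chr14:17467256-17467405, minus strand) and Cxcl6 (chr14:17596418-17596567, minus strand) are shown over 150 bases, and Cxcl10 (chr14:15988816-15989065, plus strand) over 250. Capitals mark the matches to the NF-kB consensus and, in Cxcl10, also to the interferon-stimulated response element (ISRE).
Cxcl1: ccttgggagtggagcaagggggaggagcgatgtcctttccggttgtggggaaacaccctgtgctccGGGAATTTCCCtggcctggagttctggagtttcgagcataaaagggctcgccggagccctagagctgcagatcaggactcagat
Cxcl2: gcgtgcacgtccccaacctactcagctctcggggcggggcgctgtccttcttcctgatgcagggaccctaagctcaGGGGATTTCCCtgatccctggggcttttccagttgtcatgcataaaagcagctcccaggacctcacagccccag
Cxcl6: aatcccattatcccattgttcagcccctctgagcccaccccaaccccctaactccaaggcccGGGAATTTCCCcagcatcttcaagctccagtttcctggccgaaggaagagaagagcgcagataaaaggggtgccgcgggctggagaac
Cxcl10: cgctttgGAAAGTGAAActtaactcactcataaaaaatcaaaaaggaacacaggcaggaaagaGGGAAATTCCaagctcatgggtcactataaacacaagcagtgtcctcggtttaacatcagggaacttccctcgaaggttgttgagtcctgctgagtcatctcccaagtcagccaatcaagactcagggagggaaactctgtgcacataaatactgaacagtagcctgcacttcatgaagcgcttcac
The match to the NF-kB consensus began 84 bases upstream of the start in Cxcl1, 74 in Cxcl2 and 88 in Cxcl6. In Cxcl10 it began 187 bases upstream, and the interferon element, on the other strand, began 243 bases upstream. Within 250 upstream bases and on either strand, the NF-kB consensus was found for 11 of the 60 members and in 3.54% of all 33469 windows of that length. The members were Ccl20, Ccl9, Cxcl1, Cxcl10, Cxcl11, Cxcl2, Cxcl6, Il36a, Il6, Lta and Ltb. The interferon element was found for 5 of 60 members and in 3.41% of all windows, and the AP-1 motif TGANTCA for 9 of 60 and in 6.34%. Members are counted here as genes and the background as windows, so these shares are not fully alike. A match describes letters only and is not evidence of binding. Cxcl2, Cxcl1, Cxcl3 and Cxcl6 lie in this order between chr14:17465210 and chr14:17596417, and Cxcl10 lies between Cxcl11 and Cxcl9 from chr14:15989066 to chr14:15991263.

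Signals are log2 values, so a difference of 1 is a change of 2-fold. They depend on the probes of each set, so levels of different genes are not ranked against each other here. Array medians lay between 5.287 and 5.554, apart from array 1 of the grafted HF culture YR219P5_RC at 5.782. On that array 64 of the 78 members were higher than on the culture's other array, by a median of 0.251. Main values of the HF contrasts that include this culture are therefore also given without that array. The keratinocyte marker Krt14 lay between 12.95 and 13.35 in all 16 cultures. The other keratinocyte markers measured varied more, Cdh1 from 9.19 to 10.79, Itgb4 from 10.51 to 11.91, Tp63 from 9.015 to 10.095 and Itga6 from 11.01 to 11.97. Of the haematopoietic markers, Ptprc, the pan-leukocyte gene, lay between 3.16 and 3.88, and the mean of the 10 markers between 3.90 and 4.40. Cd68, a lysosomal protein of macrophages, departed from the others of that list, with a range from 5.17 to 8.78. The 5 endothelial markers averaged between 3.73 and 4.12. The markers of the labelled tissues overlapped in part. Psmb11, the thymoproteasome subunit of cortical TEC, was between 3.93 and 4.29 in TEC cultures and between 4.02 and 4.52 in HF cultures, and Foxn1, the transcription factor of TEC and hair, between 5.48 and 6.02 and between 5.13 and 6.15. Pax9, a transcription factor of the pharyngeal pouch, was between 6.81 and 9.54 in TEC cultures and between 6.21 and 6.43 in HF cultures. Krt8 did not overlap either, at 7.837 to 11.595 in TEC and 6.667 to 7.12 in HF cultures. Its other probe set gave 7.141 to 11.529 and 5.123 to 5.783. Krt17, a hair follicle gene, was 11.966 to 12.646 in TEC and 12.722 to 12.997 in HF cultures. The follicle genes Krt15, Lhx2 and Lgr5 overlapped, as did the thymic genes Pax1, Epcam, Aire and Prss16. Cultures were measured in bulk, where fewer cells of a kind and less RNA per cell cannot be told apart.

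Most cytokine genes gave a signal under that of the median probe set, and they varied between cultures about as often as other probe sets did. A signal reflects the probes as well as the RNA, and the background of the arrays was not analysed here. The mean over the 16 cultures was above the median probe set of the array (6.46) for 10 members and at or under it for 68. In 42 members no culture reached 5. The signal spanned at least 1 log2 unit between cultures in 23 of 78 members (29.5%), against 31.5% of all probe sets tested, and the median span was 0.61 for members and 0.74 for all probe sets. The members with a span of at least 1 were 7 of 14 CXC and related chemokines, 5 of 7 interleukin-1 family genes, 3 of 3 colony stimulating factors, 2 of 4 interleukin-10 family genes, 2 of 9 common gamma chain and type 2 cytokines, and 1 each among the 19 CC chemokines, the 11 TNF family ligands, the 3 genes of the interleukin-6 group and the 5 interleukins of the last class. None of the 3 interleukin-12 family genes spanned 1. The CC chemokines, which attract monocytes, eosinophils and lymphocytes, lay between 2.98 and 6.12 in all cultures. The common gamma chain and type 2 cytokines, which are mostly products of T cells, lay between 2.60 and 5.69, and the interleukin-12 family, mostly made by dendritic cells and macrophages, between 3.52 and 5.83.

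**Figure D1:**
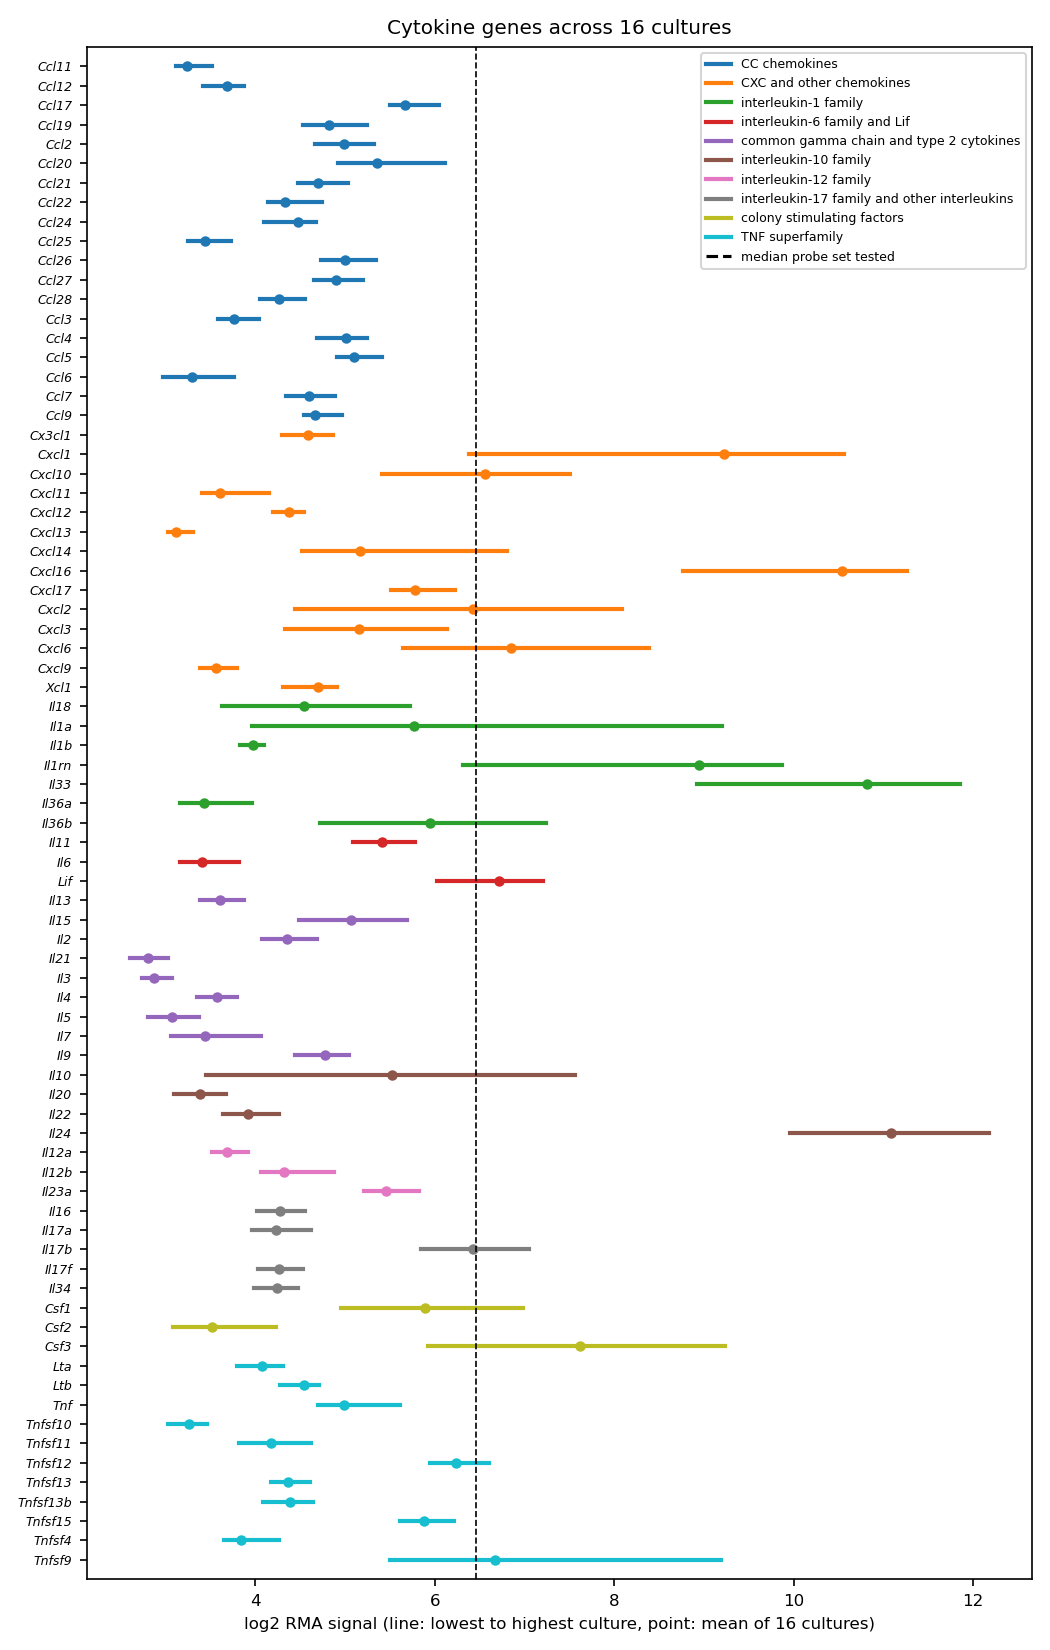
Log2 signal of the 78 cytokine genes across 16 cultures. Lines run from the lowest to the highest culture mean, points mark the mean of 16 cultures, colours mark the class of ligand and the dashed line marks the median probe set tested (6.46). The 10 members with a mean right of the dashed line include Il24, Il33, Cxcl16 and Cxcl1, and the CC chemokines all lie left of it.

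The genes named as markers of this group did not all stand out. Ccl2, the monocyte chemokine, ranged from 4.66 to 5.33. Csf2, which encodes the growth factor of granulocytes and macrophages (GM-CSF), ranged from 3.09 to 4.23. Cxcl10 ranged from 5.41 to 7.50. Only Cxcl10 of these 3 reached the median probe set. The ligands by which thymic epithelium is best known lay under the median probe set too. Ccl25 lay between 3.25 and 3.73, Ccl21 between 4.47 and 5.03, Ccl19 between 4.53 and 5.25 and Cxcl12 between 4.20 and 4.55. Il7, the survival factor of thymocytes, lay between 3.06 and 4.06, Il15 between 4.49 and 5.69, and Tnfsf11, the ligand RANKL, between 3.82 and 4.62. Among ligands of skin, Ccl27, which draws T cells to the epidermis, lay between 4.66 and 5.197, Ccl20 between 4.92 and 6.12, and Il1b between 3.83 and 4.10. No gene is called absent.

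The comparisons were tested with limma on the 16 culture means, with Benjamini-Hochberg adjustment of the p-values over all 15316 probe sets. A gene is said to have risen or fallen only if the adjusted p was under 0.05. In the contrast of the 8 grafted with the 4 ungrafted TEC cultures, 2 of 78 members passed, both lower after grafting, where 4.83% of all probe sets tested passed. The median difference was 0.02 over the members and 0.01 over all probe sets, and both are close to 0. At an unadjusted p under 0.05 there were 12 of 78 members, and 21.0% of all probe sets. Grafted and ungrafted cultures did not overlap for 4 members, higher after grafting for Tnfsf9 and lower for Ccl2, Cxcl1 and Csf3, against 4.56% of all probe sets. The counts of members called were not above those shares and the count without overlap was close to its share, so none is a result about the ligands as a group.

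The granulocyte colony stimulating factor gene Csf3, which drives the making of neutrophils, fell after grafting. In ungrafted TEC it measured 9.24 (PRE16cl11_VII), 8.57 (PRP1cl11_VII), 8.72 (PRP4mo_bulk) and 9.17 (PRP4mo_Cl09). After a first transplantation it measured 7.01, 8.25, 6.97 and 7.95 in Clone_217, Clone_218, Clone_57 and Clone_907. After a second it measured 6.90, 7.65, 5.93 and 8.55 in Clone_287, Clone_347, Clone_194 and Clone_354. All 8 grafted cultures lay under all 4 ungrafted ones, but Clone_354 missed the lowest of them by only 0.02. The grafted mean was 7.40 ± 0.86 (SD, n = 8) against 8.93 ± 0.33 (n = 4), which is 2.88-fold lower (log2 difference -1.53, SE 0.41, limma adjusted p = 0.0479). The call lies at the edge of the threshold. It held when Clone_218, Clone_354, YR219P5_Bulk_V or YR219P5cl7 was left out, and the adjusted p was 0.0518 to 0.148 when any other culture was left out. It was also lost with each array centred on its median (0.0581), without array 1 of YR219P5_RC (0.0518) and in clonal cultures alone (-1.88, 0.0915).

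Ccl2 also fell, by a small amount. Ungrafted TEC measured 5.12, 5.14, 5.27 and 5.33 in the order given for Csf3. The cultures after a first transplantation measured 4.90, 4.66, 5.09 and 4.96, and those after a second 4.995, 4.79, 4.89 and 4.92. Every grafted culture lay under every ungrafted one, with Clone_57 closest. The mean changed from 5.21 ± 0.10 (SD, n = 4) to 4.90 ± 0.13 (n = 8), 1.24-fold lower (log2 difference -0.32, SE 0.08, limma adjusted p = 0.0470). That call held when Clone_57 or Clone_287 was left out, with adjusted p of 0.0506 to 0.160 otherwise. It was lost with centred arrays (0.0724), with donor stage in the model (0.0767), without array 1 of YR219P5_RC (0.0531) and in clonal cultures alone (-0.31, 0.260).

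Fibroblast and feeder markers leaned the same way as Csf3 and Ccl2 in this contrast. The difference was below 0 for 7 of the 9 markers, with a median of -0.22 against 0.01 over all probe sets. None passed, and 3 had an unadjusted p under 0.05, Col1a2 (-0.38, SE 0.13, limma adjusted p = 0.117), Thy1 (-0.86, SE 0.36, 0.194) and Pdgfra (-0.16, SE 0.07, 0.188). Pdgfra did not overlap between grafted and ungrafted TEC, and Vim differed most (-1.33, SE 0.67, limma adjusted p = 0.277). The mean of the 9 markers per culture was 5.53 to 6.01 in ungrafted TEC, 5.28 to 5.67 in once-grafted and 5.21 to 5.66 in twice-grafted TEC, and 5.65 to 6.10 in HF cultures. Vim ranged from 6.85 to 11.81 over all cultures, and no culture was above 2.87 for Lum. Among the haematopoietic markers 0 of 10 passed or had an unadjusted p under 0.05. Cd68 differed most, by 1.15 (SE 0.55, limma adjusted p = 0.250) in grafted TEC. The part of these markers in the differences of the cytokine genes was not tested.

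Genes that missed the threshold had sizes as large as that of Csf3. Tnfsf9, which encodes the T cell costimulator 4-1BB ligand, measured 5.94, 5.503, 5.53 and 5.64 in ungrafted TEC. After a first transplantation it measured 7.96, 6.63, 6.55 and 9.19, and after a second 7.76, 7.51, 6.04 and 6.63. No grafted culture overlapped with the ungrafted ones, and Clone_907 was the highest of all. The grafted mean was 3.10-fold higher (log2 difference 1.63, SE 0.45, limma adjusted p = 0.0533). For Il1rn, the interleukin-1 receptor antagonist, the ungrafted TEC cultures measured 9.19, 8.37, 6.31 and 7.22. The grafted ones measured 8.997, 8.75, 8.75 and 9.81 when grafted once and 9.88, 9.03, 9.52 and 8.74 when grafted again. Only the E16 culture PRE16cl11_VII overlapped with the grafted cultures, and both cultures of 4-month-old donors were low. The difference was 1.41 (SE 0.42, limma adjusted p = 0.0703). Il1rn passed without PRE16cl11_VII (1.88, adjusted p = 0.0179). Tnfsf9 passed without Clone_218, Clone_57, Clone_907 or Clone_194 (adjusted p = 0.0263 to 0.0494), with the filter on low values and with donor stage in the model.

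The neutrophil chemokine Cxcl1 measured 10.56, 10.20, 9.62 and 9.89 in ungrafted TEC. It measured 7.998, 8.21, 9.47 and 9.40 after a first transplantation, and 8.76, 6.38, 8.67 and 9.37 after a second. The groups did not overlap, and Clone_347 was lowest by more than 1 log2 unit. The arrays of Clone_347 differed by 1.09 for Cxcl1, the largest such gap for this gene, and correlated least of all 16 pairs (0.984 over probe sets). The difference of -1.53 (SE 0.48, limma adjusted p = 0.0822) did not pass. Cxcl10 differed by -0.69 (SE 0.21, adjusted p = 0.0797), Csf2 by -0.44 (0.14, 0.0851), Il24 by -0.996 (0.34, 0.112) and Il7 by -0.44 (0.16, 0.127), each given with its SE and limma adjusted p. Cxcl16, a membrane-anchored chemokine that is also a scavenger receptor, differed by 0.89 (SE 0.28, adjusted p = 0.0865). Ungrafted TEC cultures lay between 9.75 and 10.36 for Cxcl16 and grafted ones between 10.28 and 11.27, and they overlapped through PRP1cl11_VII and Clone_907. All groups share 1 estimate of the spread, which for Cxcl16 includes a wide gap between both ungrafted HF cultures. Without either YR219P5_Bulk_V or YR219P5cl7 the same difference of Cxcl16 had an adjusted p of 0.00838, and that of Cxcl10 an adjusted p of 0.0263. Il7 passed without Clone_218 (0.0230). Cxcl3 passed without Clone_57 (0.0189) and with donor stage in the model, and Cxcl16 in clonal cultures alone. Il10, an anti-inflammatory interleukin, was highest in Clone_907 (7.57), Clone_54 (6.93) and Clone_354 (6.84) and lowest in PRP4mo_bulk (3.45) and YR219P5_Bulk_V (3.65), and its difference between grafted and ungrafted TEC was 1.17 (SE 0.59, adjusted p = 0.280).

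**Figure D2:**
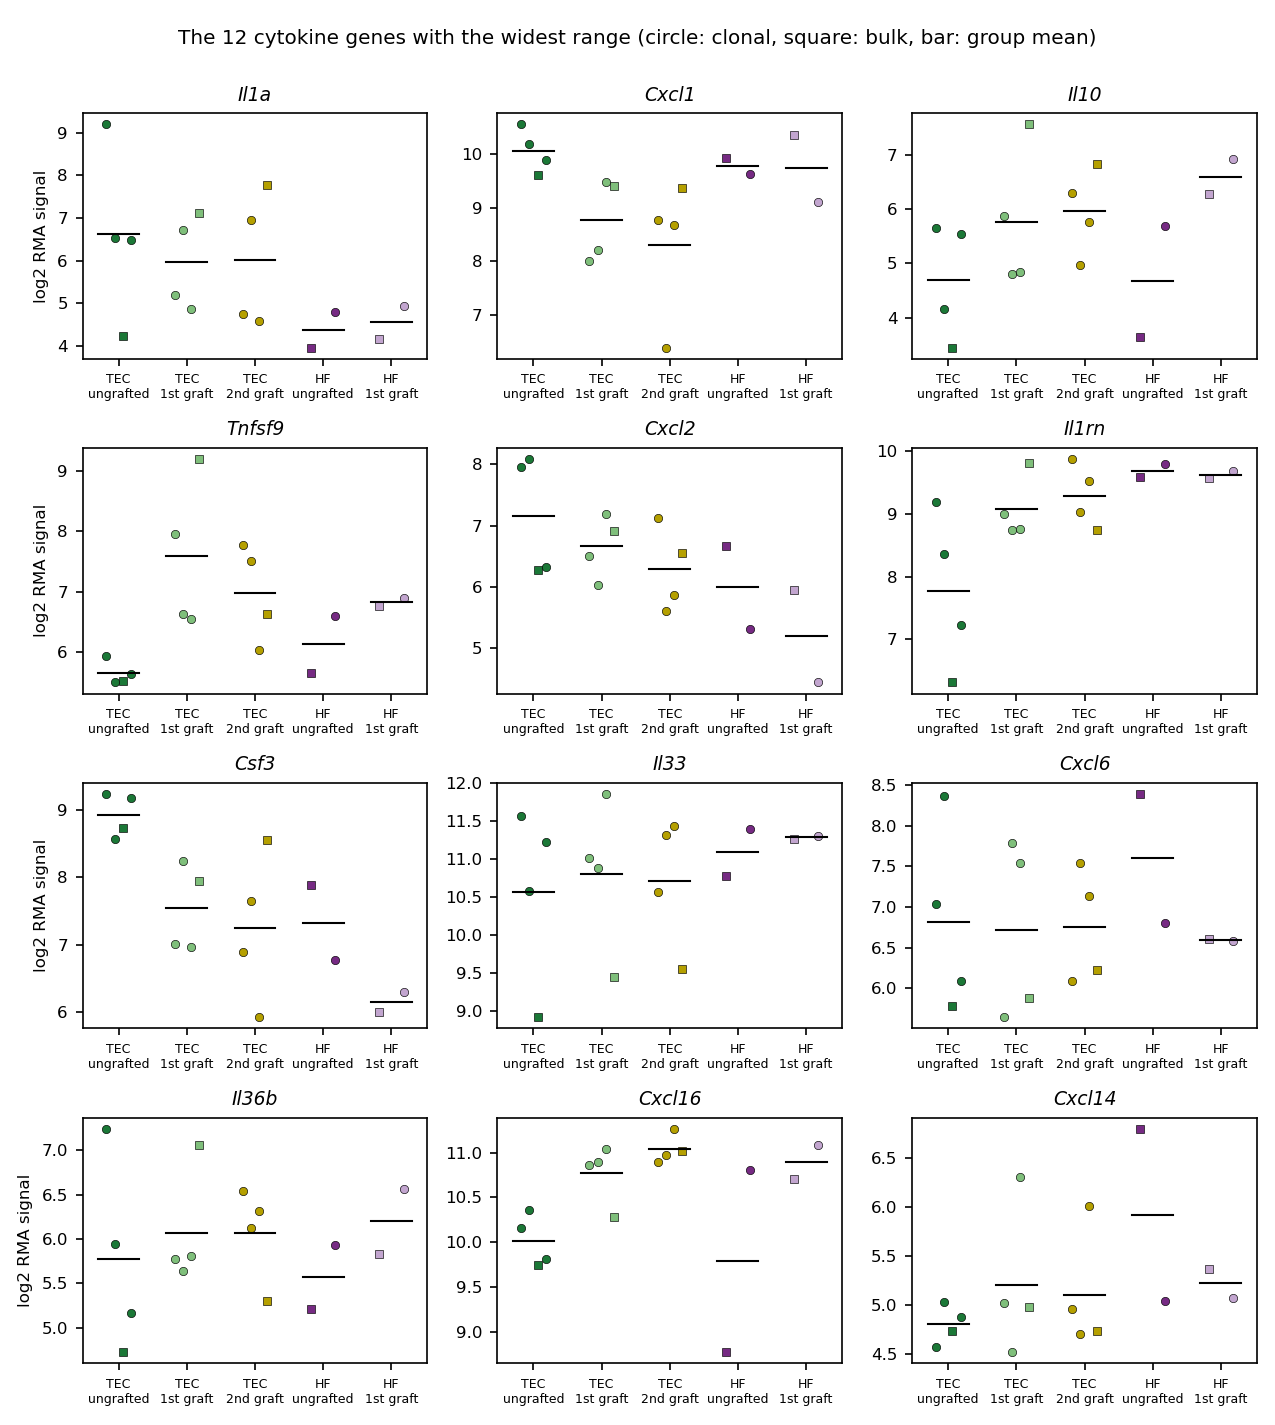
Log2 signal of the 12 cytokine genes with the widest span, by group. Circles are clonal cultures, squares bulk cultures and bars group means, and each point is the mean of 2 arrays. Csf3 and Cxcl1 lie lower, and Tnfsf9 higher, in every grafted TEC culture than in every ungrafted one, while Il1a, Il36b and Cxcl6 spread widely within groups.

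Each transplantation taken alone gave no member past the threshold. After a first transplantation 0 of 78 members passed, where 0.516% of all probe sets did, and 13 had an unadjusted p under 0.05 (14.8% of all probe sets). The cultures did not overlap for 8 members, against 7.95% of all probe sets. The smallest p belonged to Tnfsf9 (difference 1.93, SE 0.51, limma adjusted p = 0.113), Csf2 (-0.58, SE 0.16, 0.121) and Ccl2 (-0.31, SE 0.10, 0.155). After a second transplantation 0 of 78 passed, where 3.86% of all probe sets did, and 11 had an unadjusted p under 0.05 (19.6% of all probe sets). Again 8 members did not overlap between the groups, against 11.9% of all probe sets. There the smallest p belonged to Csf3 (-1.67, SE 0.47, limma adjusted p = 0.0632), Ccl2 (-0.32, SE 0.10, 0.0805) and Cxcl1 (-1.77, SE 0.55, 0.0889). Csf3 passed when Clone_354 was left out (0.0281) and with donor stage in the model (0.0432). Il1rn passed without PRE16cl11_VII (0.0257), and Cxcl10 and Cxcl16 without either ungrafted HF culture (0.0438 and 0.0107). These comparisons share the ungrafted cultures, so their likeness is no separate evidence. Between the transplantations, 0 of 78 members and 0% of all probe sets passed, with 1 member, Ccl6 (0.34, SE 0.14), at an unadjusted p under 0.05 (3.47% of all probe sets). The difference for Csf3 between the transplantations was -0.29 with a 95% interval from -1.30 to 0.72.

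In HF cultures, 0 of 78 members and 0% of all probe sets passed after a first transplantation, with 5 members at an unadjusted p under 0.05 (8.84% of all probe sets). With 2 cultures in each group, 28 members did not overlap, against 41.4% of all probe sets. The members leaned upward in this contrast, with 65 of 78 positive and a median of 0.13, but without array 1 of YR219P5_RC 51 were positive and the median was 0.07. The median over all probe sets moved in the same way, from 0.10 to 0.03. The smallest p belonged to Tnfsf4, the OX40 ligand (0.41, SE 0.12, limma adjusted p = 0.562), Il36a (0.42, SE 0.17, 0.562) and Cxcl16 (1.10, SE 0.46, 0.562). Without that array Tnfsf4 differed by 0.46, Il36a by 0.21 and Cxcl16 by 1.07. For Cxcl16 the ungrafted cultures themselves stood far apart, at 8.77 in YR219P5_Bulk_V and 10.81 in YR219P5cl7, and YR219P5_RC and Clone_54 measured 10.71 and 11.08. Without YR219P5cl7, which leaves 1 ungrafted HF culture, the difference of Cxcl16 was 2.12. The spread of that group is then assumed to be that of the other groups. Leaving out single cultures moved the difference between 0.08 and 2.12, so its size depends on which ungrafted HF culture is kept. Csf3 was lower in both grafted HF cultures, 6.01 in YR219P5_RC and 6.30 in Clone_54, than in the ungrafted ones, 7.88 in YR219P5_Bulk_V and 6.77 in YR219P5cl7. That difference of -1.17 (SE 0.66, adjusted p = 0.581) did not pass, nor did that of -1.31 without array 1 of YR219P5_RC (0.698). The test of whether TEC and HF cells differed in their change after a first transplantation gave 0 of 78 members and 0% of all probe sets, with 3 members at an unadjusted p under 0.05 (5.65% of all probe sets). These were Csf2 (-1.02, SE 0.28), Tnfsf4 (-0.53, SE 0.14) and Il36a (-0.57, SE 0.21), each with a limma adjusted p of 0.827. Without that array the differences were -0.98, -0.58 and -0.37, each with an adjusted p of 0.924.

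TEC and HF cultures were compared before grafting, and over both states together. Before grafting, 0 of 78 members passed, where 1.55% of all probe sets did, and 11 had an unadjusted p under 0.05 (13.5% of all probe sets). The tissues did not overlap for 15 members, against 25.8% of all probe sets. Cxcl10 measured 7.50, 7.24, 7.27 and 6.70 in the ungrafted TEC cultures, and 5.41 and 6.69 in YR219P5_Bulk_V and YR219P5cl7. The groups were apart by 0.01, and YR219P5_Bulk_V was the lowest of the 16 cultures. The difference was 1.13 (SE 0.30, limma adjusted p = 0.0830), and leaving out single cultures moved it between 0.49 and 1.77. It was 1.77 without YR219P5cl7, which leaves 1 ungrafted HF culture. In that fit Cxcl16 differed by 1.25, but its HF cultures, at 8.77 and 10.81, lay on both sides of ungrafted TEC (9.75 to 10.36). Csf2 differed by 0.75 (SE 0.20, limma adjusted p = 0.0781), with TEC at 4.23, 3.69, 3.97 and 3.57 and HF at 3.09 and 3.15. Il1rn was lower in every ungrafted TEC culture than in the HF cultures, 9.59 and 9.79, by 1.92 on average (SE 0.59, limma adjusted p = 0.142), and passed without PRE16cl11_VII (0.0447). Grafted TEC, at 8.74 to 9.88, overlapped with the HF cultures for this gene. Csf3, at 7.88 and 6.77 in HF, differed by 1.60 (SE 0.57, adjusted p = 0.219).

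Over ungrafted and once-grafted cultures together, 0 of 78 members passed, where 4.17% of all probe sets did, and 14 had an unadjusted p under 0.05 (23.1% of all probe sets). Cxcl10 (0.79, SE 0.21, limma adjusted p = 0.0535), Csf3 (1.495, SE 0.41, 0.0558) and Lif (0.41, SE 0.13, 0.0897) were closest to the threshold, all higher in TEC. Lif encodes leukaemia inhibitory factor, an interleukin-6 family ligand, and measured 6.52 to 7.03 in these 8 TEC cultures and 6.02, 6.60, 6.41 and 6.43 in HF. YR219P5cl7 was the 1 HF culture that reached the TEC range for Lif. With each array centred on its median, all 3 passed (adjusted p = 0.0372, 0.0439 and 0.0478). The same centring turned the calls over all probe sets from 321 higher and 318 lower to 622 higher and 147 lower, so directions in this contrast lean on the scaling. Leaving out single cultures moved the difference between 0.47 and 1.105 for Cxcl10, 1.22 and 1.77 for Csf3, and 0.27 and 0.56 for Lif. Cxcl10 passed without PRP4mo_Cl09 (adjusted p = 0.0463), and Csf3 without Clone_57, Clone_194 or Clone_354 (0.0302 to 0.0445). The largest differences of Cxcl10 and Lif came without YR219P5cl7, which leaves 1 ungrafted HF culture. Without array 1 of YR219P5_RC the adjusted p was 0.0784 for Cxcl10, 0.0537 for Csf3 and 0.0988 for Lif. Cxcl2 differed by 1.32 (SE 0.45, limma adjusted p = 0.105), Il1a by 1.83 (SE 0.82, 0.200) and Il1rn by -1.23 (SE 0.42, 0.106), and Il1rn passed without PRE16cl11_VII (0.0465).

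**Figure D3:**
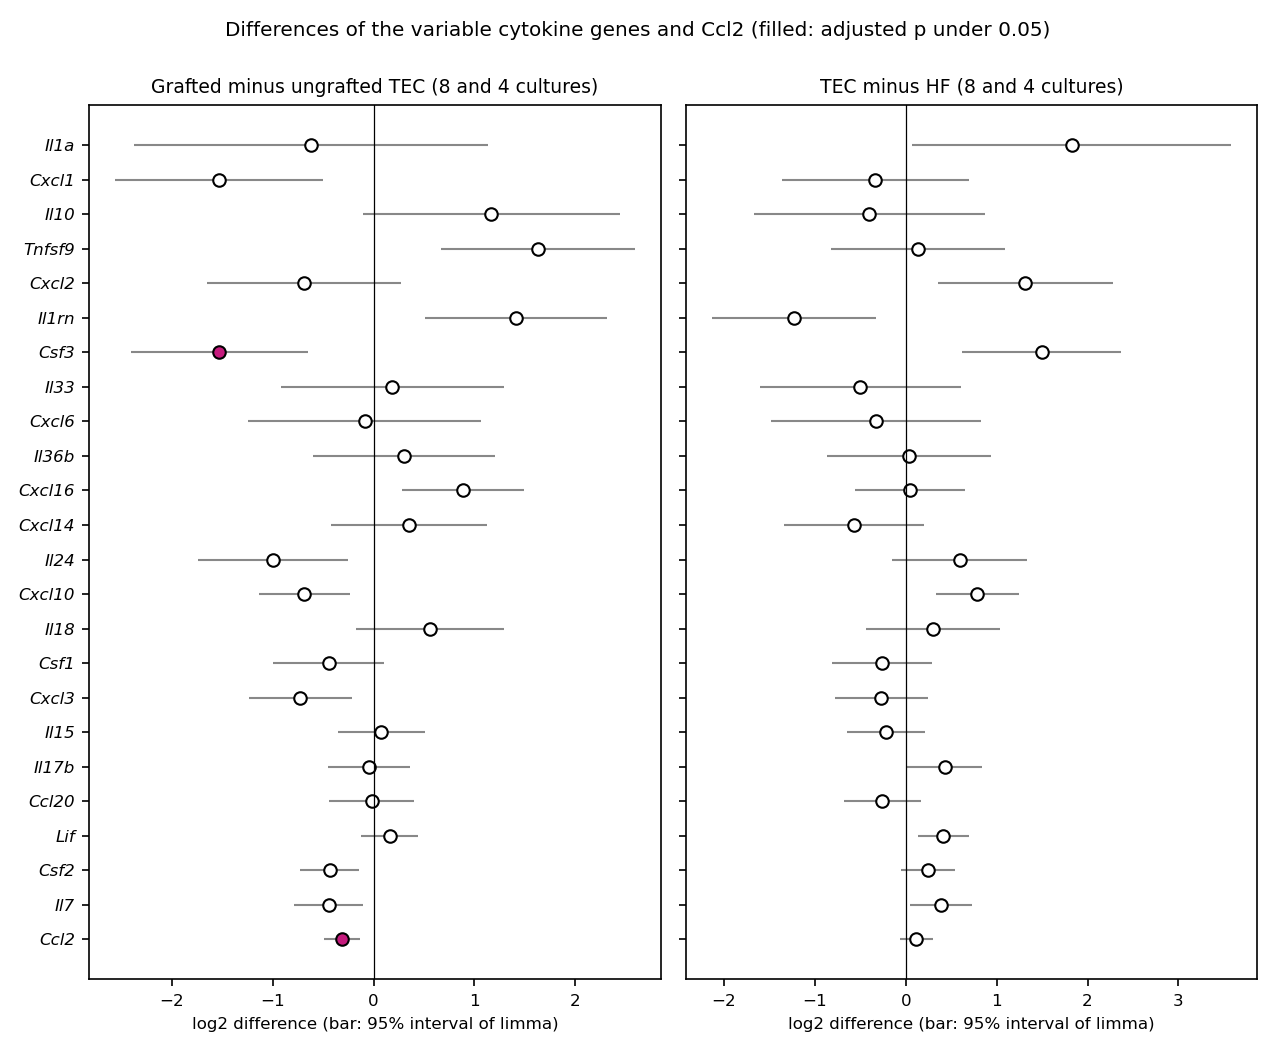
Log2 differences of the variable cytokine genes and Ccl2, grafted minus ungrafted TEC on the left and TEC minus HF on the right. Points are limma estimates, bars 95% intervals and filled points an adjusted p under 0.05. Filled points appear only for Csf3 (-1.53) and Ccl2 (-0.32) after grafting.

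Grafted TEC were also set against grafted HF cultures. After a first transplantation of both, 0 of 78 members passed (0.0718% of all probe sets), and 13 had an unadjusted p under 0.05 (2601 of all 15316 probe sets). For TEC after a second transplantation 0 of 78 passed (0.0457%), and 8 had an unadjusted p under 0.05 (21.0%). In the former contrast 62 of 78 members (79.5%) were lower in TEC, as were 66.7% of all probe sets, with medians of -0.15 and -0.11. Without array 1 of YR219P5_RC the positive members went from 16 to 32 and both medians to -0.03, and with centred arrays the median of the members was -0.01. The lean was shared with all probe sets and shrank without that array, so it is not read as a result about the members. The smallest p belonged to Tnfsf4 (-0.33, SE 0.10, limma adjusted p = 0.201), Il36a (-0.43, SE 0.15, 0.214) and Tnfsf11 (-0.42, SE 0.15, 0.233) in the former. Without that array they differed by -0.375, -0.22 and -0.23. The arrays of YR219P5_RC were 0.819 apart for Il36a, and leaving out single cultures moved its difference between -0.62 and -0.23. In the latter it belonged to Tnfsf13, the B cell factor APRIL (-0.32, SE 0.10, limma adjusted p = 0.131), Tnfsf12, the ligand TWEAK (-0.43, SE 0.14, 0.133) and Il36a (-0.42, SE 0.15, 0.147), and without that array the differences were -0.27, -0.36 and -0.22.

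Donor stage was tested within the 12 TEC cultures, with transplantation state in the model. All cultures from E16 donors were clonal, and those of 4 months were bulk except PRP4mo_Cl09. Stage and kind of culture can therefore hardly be told apart for any gene in this contrast. Of 78 members 0 passed between 4-month-old and E16 donors, where 0.0914% of all probe sets did, and 4 had an unadjusted p under 0.05 (11.1% of all probe sets). Il33, a nuclear alarmin of the interleukin-1 family, had the smallest p. It measured 8.92 in PRP4mo_bulk, 9.45 in Clone_907 and 9.55 in Clone_354, the lowest values of all 16 cultures, and 11.22 in the clonal PRP4mo_Cl09. The 5 cultures from E16 donors lay between 10.57 and 11.57, and those from P1 donors between 10.57 and 11.86. The 3 low cultures are thus the 3 that are labelled both bulk and 4 months, while the bulk HF cultures measured 10.77 and 11.26. The difference was -1.33 (SE 0.47, limma adjusted p = 0.354), and among clonal cultures alone, with 1 culture of 4 months, it was 0.26 (0.999). Cxcl16 differed by -0.30 (SE 0.11, limma adjusted p = 0.364) and Csf1, the macrophage growth factor, by 0.62 (SE 0.24, 0.389). Csf1 was highest in PRP4mo_bulk (6.98) and lowest in Clone_347 (4.95), and it was the only member whose 4-month and E16 cultures did not overlap (2.24% of all probe sets).

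The other wide-ranging members are given by culture. Il1a, the alarmin released by damaged keratinocytes, measured 9.20 in PRE16cl11_VII, 7.77 in Clone_354 and 7.12 in Clone_907, and 4.24 in PRP4mo_bulk. All 4 HF cultures were low for Il1a, at 3.97, 4.80, 4.17 and 4.95, and overlapped with Clone_57 (4.87), Clone_287 (4.74), Clone_194 (4.59) and PRP4mo_bulk. Il36b, an epidermal relative of interleukin-1, was highest in PRE16cl11_VII (7.24) and Clone_907 (7.06) and lowest in PRP4mo_bulk (4.73). Il24, an interleukin-10 family gene, ranged from 9.96 in Clone_217 and YR219P5_Bulk_V to 12.18 in PRP4mo_Cl09. Its mean was 11.85 ± 0.29 (SD, n = 4) in ungrafted TEC, 10.85 ± 0.64 (n = 8) in grafted TEC and 10.80 ± 0.63 (n = 4) in HF cultures, and the ungrafted TEC overlapped with grafted TEC. Il18 ranged from 3.63 in PRP4mo_Cl09 to 5.72 in Clone_287 and Il17b from 5.85 in YR219P5cl7 to 7.05 in PRP4mo_bulk. Cxcl14, a chemokine of resting epithelia, measured 6.80 in YR219P5_Bulk_V, 6.31 in Clone_57 and 6.01 in Clone_194 and no more than 5.37 in the other 13 cultures. Clone_57 and Clone_194 are the grafted TEC clones from P1 donors, whereas the ungrafted clone of that stage measured 5.03. Cxcl14 differed by -1.12 between ungrafted TEC and HF (SE 0.51, limma adjusted p = 0.352).

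The clustered neutrophil chemokines correlated to unequal degrees, and the order of the pairs differed between all cultures and deviations within groups. Cxcl2 was highest in the ungrafted clones PRP1cl11_VII (8.08) and PRE16cl11_VII (7.96) and lowest in Clone_54 (4.44), and Cxcl6 was highest in YR219P5_Bulk_V (8.39) and PRP1cl11_VII (8.37) and lowest in Clone_217 (5.64). Cxcl3, named here because of the correlation and after its values were seen, ranged from 4.33 in Clone_217 to 6.13 in PRP1cl11_VII. Of the 6 pairs among these 4 genes, Cxcl1 and Cxcl3 had the closest relation over the 16 cultures when groups were not taken into account, with a Pearson r of 0.724 (permutation p = 0.00081, adjusted over the 6 pairs 0.00486) and a Spearman rho of 0.856 (permutation p = 4e-05, adjusted 0.00024). Without Clone_347 and Clone_217, the cultures farthest from the median of Cxcl1, r was 0.784. Cxcl3 and Cxcl6 had an r of 0.573 (permutation p = 0.0208, adjusted 0.0623), which was 0.267 without PRP1cl11_VII and YR219P5_Bulk_V and so rests on those cultures. Cxcl1 and Cxcl6 had an r of 0.019 (permutation p = 0.947, adjusted 0.947). The part of gene position or of the promoter matches in these correlations was not tested. Cxcl1 and Cxcl2 had an r of 0.397, Cxcl2 and Cxcl3 0.413 and Cxcl2 and Cxcl6 0.191, with permutation p adjusted to 0.194, 0.194 and 0.573. With group means removed, Cxcl2 and Cxcl3 were closest (r = 0.690), followed by Cxcl1 and Cxcl2 and Cxcl3 and Cxcl6 (each 0.648). Then came Cxcl1 and Cxcl3 (0.520), Cxcl2 and Cxcl6 (0.295) and Cxcl1 and Cxcl6 (-0.088). These values within groups are given without a test. The probe sets of such similar genes may share targets, which was not tested.

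Receptors and signalling genes were drawn from lists of the pathways, of which 74 of 98 receptors, 29 of 33 genes of NF-kB signalling (30 probe sets) and 22 of 25 genes of JAK-STAT signalling were measured. In the contrast of TEC with HF over both states, 2 receptors were higher in TEC, 1 was lower and 71 did not pass. Of all probe sets 4.17% passed in that contrast, so the receptors were called about as often as the array as a whole. Il1rap, the shared subunit of the interleukin-1, interleukin-33 and interleukin-36 receptors, was lower in TEC. It measured 7.71, 7.61, 7.54 and 7.71 in ungrafted TEC and 7.95, 7.88, 8.24 and 7.59 after a first transplantation, and 9.15, 8.71, 8.44 and 8.52 in YR219P5_Bulk_V, YR219P5cl7, YR219P5_RC and Clone_54. No TEC culture reached any HF culture. Before grafting TEC were 2.45-fold lower (log2 difference -1.29, SE 0.16, limma adjusted p = 0.00368) and over both states 1.91-fold lower (-0.93, SE 0.12, 0.00150). The former call was lost without YR219P5_Bulk_V (0.0657), and the latter held without any single culture. In clonal cultures alone, where each HF group holds 1 culture and 4 and 15 of all 15316 probe sets passed, the differences were -1.04 and -0.77 (adjusted p = 0.196 and 0.106). TEC after a second transplantation measured 8.20, 7.88, 8.21 and 8.001.

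Cxcr2, the receptor of the neutrophil chemokines, was 4.66-fold higher in TEC than in HF over both states (log2 difference 2.22, SE 0.55, limma adjusted p = 0.0392). Ungrafted TEC measured 6.15, 8.67, 8.28 and 8.34, and once-grafted TEC 6.29, 5.74, 6.84 and 7.06. HF cultures measured 6.12 and 5.03 before and 4.25 and 4.40 after grafting. Within this contrast the tissues overlapped through YR219P5_Bulk_V and Clone_218. Twice-grafted TEC, which are not part of it, measured 6.56, 5.72, 4.99 and 8.045, and Clone_347 and Clone_194 also lay under YR219P5_Bulk_V. The call held without PRE16cl11_VII, Clone_218, Clone_57, Clone_287, Clone_347, Clone_194 or Clone_354, and was lost without any other culture (adjusted p = 0.0581 to 0.147). Il6st, the signal-transducing chain for Lif and interleukin-6, was higher in TEC by 0.48 (SE 0.11, limma adjusted p = 0.0269), a call lost without Clone_218, YR219P5cl7, YR219P5_RC or Clone_54 (0.0518 to 0.126).

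Among NF-kB genes, 1 was higher in TEC than in HF over both states, 0 were lower and 29 did not pass, a share near the 4.17% of all probe sets. Nfkbiz, the inducible nuclear protein IkB-zeta, was 2.60-fold higher (log2 difference 1.38, SE 0.36, limma adjusted p = 0.0461). It measured 10.24, 9.17, 8.94 and 9.36 in ungrafted TEC and 8.69, 8.84, 7.95 and 9.60 in once-grafted TEC. HF cultures measured 6.49, 8.07, 7.87 and 8.46, and Clone_57 was the ungrafted or once-grafted TEC culture that overlapped with them. Of the twice-grafted cultures, Clone_194 (8.19) did so too. The call held when Clone_57, Clone_347, Clone_194 or YR219P5cl7 was left out (0.0503 to 0.201 otherwise) and was lost without array 1 of YR219P5_RC (0.0525). After grafting of TEC, 1 of the 30 probe sets was lower and 0 were higher, where 4.83% of all probe sets passed. Nfkbie, the inhibitor IkB-epsilon, was 1.68-fold lower (log2 difference -0.75, SE 0.17, limma adjusted p = 0.0289), from 7.35 ± 0.40 (SD, n = 4) to 6.69 ± 0.39 in once-grafted and 6.50 ± 0.13 in twice-grafted TEC. Ungrafted PRP1cl11_VII (6.78) lay within the grafted range of 6.20 to 7.12. The call was lost without PRE16cl11_VII, PRP4mo_bulk or PRP4mo_Cl09 (0.0631 to 0.121).

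Of the 22 JAK-STAT genes, 2 were higher after grafting of TEC, 0 were lower and 20 did not pass, where 4.83% of all probe sets passed. Socs3, the feedback inhibitor of cytokine receptors that signal through Il6st and of the receptor for G-CSF, was 1.89-fold higher (log2 difference 0.92, SE 0.17, limma adjusted p = 0.0113). It measured 6.83, 6.82, 6.30 and 6.74 in ungrafted TEC. It measured 7.29, 7.14, 7.48 and 7.60 in once-grafted and 8.22, 7.29, 7.95 and 7.75 in twice-grafted TEC. The groups did not overlap, and HF cultures measured 6.99 and 7.45 before and 7.57 and 7.996 after grafting. The call was lost only without PRP4mo_bulk (0.0547) among single cultures, and in clonal cultures alone (0.117). Against ungrafted TEC, the twice-grafted cultures differed by 1.13 (SE 0.20, limma adjusted p = 0.0107), a call that held without any single culture. Pias1, an inhibitor of STAT proteins, was higher by 0.36 (SE 0.08, limma adjusted p = 0.0283), which was lost without PRE16cl11_VII, PRP1cl11_VII, PRP4mo_bulk, PRP4mo_Cl09 or Clone_217 (0.0502 to 0.0914) and with centred arrays (0.0510). In the contrast of TEC with HF over both states, Jak1 was higher in TEC by 0.45 (SE 0.11, limma adjusted p = 0.0407) and Socs5 lower by 0.66 (SE 0.15, 0.0280), while 20 genes did not pass (4.17% of all probe sets passed). Jak1 held when PRP4mo_Cl09, Clone_57, Clone_287, Clone_347, Clone_194 or YR219P5_Bulk_V was left out (0.0507 to 0.199 otherwise). Socs5 was lost without PRE16cl11_VII, PRP4mo_Cl09, Clone_218, Clone_907 or any HF culture (0.0509 to 0.102) and with centred arrays (0.0557). Before grafting, Cish, a STAT5 target, was 1.97-fold higher in TEC (log2 difference 0.98, SE 0.20, limma adjusted p = 0.0305), a call lost without PRE16cl11_VII, PRP1cl11_VII or YR219P5_Bulk_V (0.0616 to 0.399). None of the calls on receptor and signalling genes given here passed in clonal cultures alone, with adjusted p from 0.103 to 0.499. In those fits 4 to 74 of all probe sets passed, so a lost call there says little about a single gene. Without array 1 of YR219P5_RC the calls of Il1rap, Cxcr2, Il6st, Jak1 and Socs5 over both states held (0.00209 to 0.0391).

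**Figure D4:**
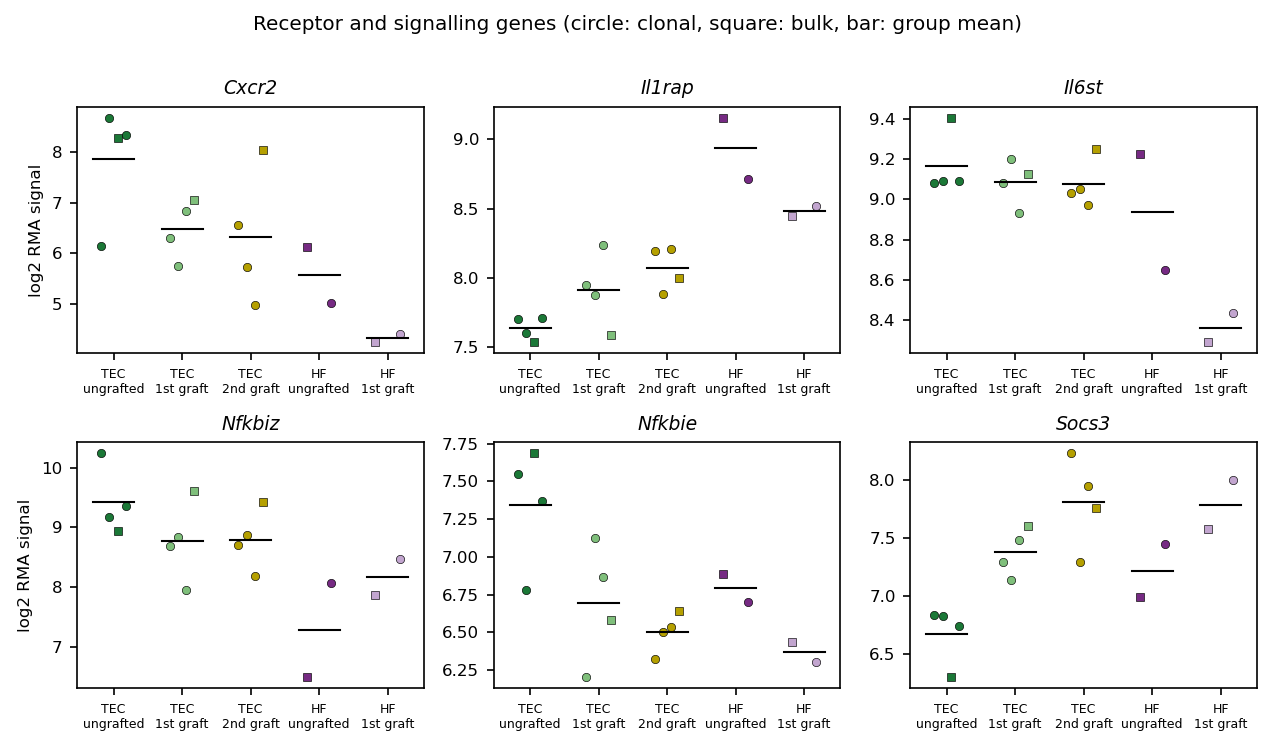
Log2 signal of 6 receptor and signalling genes that passed in a comparison, by group. Circles are clonal cultures, squares bulk cultures and bars group means. Socs3 lies higher in all 8 grafted than in all 4 ungrafted TEC cultures, and Il1rap higher in all 4 HF cultures than in every TEC culture.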

How the data were processed

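RNA of 16 rat cultures was hybridised to 32 Affymetrix rat gene arrays, a pair for each culture. The authors deposited log2 values from the RMA method of Affymetrix Expression Console, as the submitters' processing notes name them; version, background setting and annotation release are not given in the sources used here. Values ran from 1.53 to 14.03. RMA fits all arrays together and compresses low signals. Of 29215 probe sets, 15316 carried exactly 1 symbol and were tested, 317 carried several and 13582 had none listed. Arrays of a culture were averaged.

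Group differences came from limma 3.58.1 (R 4.3.3; lmFit and eBayes, a coefficient per group, all cultures), with Benjamini-Hochberg adjustment over the 15316 probe sets and a threshold of 0.05. The number of cultures limits the precision. The scripts were tested on simulated data. Promoters were taken from RefSeq (GRCr8). The members, gene lists and tests were chosen with earlier results of these data known. The genes named are the 3 markers, those past the threshold, the 12 with the highest mean, the 12 with the widest span, the 3 smallest p where nothing passed, and panels of thymic and skin ligands; Tslp, of the skin panel, was not analysed here. Receptor and signalling genes are named where they passed, and the tissue identity genes were chosen after the data were seen. Alternatives were centring of each array on its median, all 32 arrays with culture as a random block, a filter on low values (5 in at least 2 cultures), clonal cultures alone, donor stage of TEC in the model, and leaving out each culture. Leaving out array 1 of YR219P5_RC was added after seeing the data.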

Additional observations from a re-analysis of the deposited data

Results flagged for a closer look

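In groups of 4 cultures the 37 named cytokine genes were searched for a culture that stands apart from the other 3 by Dixon's criterion. Of 111 groups tested, 4 (3.6%) held one, and chance gives about 1 in 20. In ungrafted TEC, Il1b was lowest in PRE16cl11_VII (3.864, the others 4.013 to 4.027) and Il20 was lowest in PRP4mo_bulk (3.092, the others 3.276 to 3.309). After a first transplantation, Ccl21 was highest in Clone_57 (4.863, the others 4.622 to 4.643). Those 3 gaps are small and lie in genes of low signal. Il36b was highest in Clone_907 after a first transplantation (7.058, the others 5.638 to 5.806), which is a gap of more than 1 log2 unit. No cause of these values was tested.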

How the results depend on the processing

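No paired analysis was possible because the replicate numbers in the labels count the arrays of a culture and do not link cultures across groups. With all 32 arrays and culture as a random block, 5 members passed between TEC and HF before grafting, 9 in once-grafted and 8 in twice-grafted against ungrafted TEC, 11 in grafted against ungrafted TEC, 6 between TEC and HF over both states and 2 between donor stages. That fit assumes 1 correlation for all genes and can give p-values that are too small. Counts of members in this section are given without the shares of all probe sets in the same fits. None of them is a result about the ligands as a group. In grafted against ungrafted TEC, 0 members passed with centred arrays, 0 without array 1 of YR219P5_RC, and 1 (Cxcl16) in clonal cultures alone. Between TEC and HF over both states, 3 passed with centred arrays, 2 (Csf3 and Cxcl10) with the filter on low values, and 1 (Csf3) with donor stage in the model. Donor stage in the model also let 1 member, Csf3, pass after a second transplantation. Leaving out single cultures gave 0 to 2 members between TEC and HF before grafting, 0 to 2 for twice-grafted TEC, 0 to 3 in grafted against ungrafted TEC, 0 to 1 in HF after grafting and 0 to 2 between TEC and HF over both states. Among single genes, only Il33 reversed its sign, between 4-month and E16 donors in clonal cultures alone (0.263, against -1.33). The other counts of members stayed within 1.5 times under these alternatives, but the genes changed in grafted against ungrafted TEC. There 3 passed with the filter on low values (Ccl2, Csf3 and Tnfsf9) and 3 with donor stage in the model (Csf3, Cxcl3 and Tnfsf9), which gained Cxcl3 and Tnfsf9 and lost Ccl2. The cause of these changes was not tested. Few cultures, and clonal fits with 1 culture in each HF group, limit what could be detected.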
